A study of Mus musculus with 6 samples.

Results

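The genes of rod and cone phototransduction, 35 of the 57180 gene identifiers in the files, were examined in RNA-seq data from corneal endothelial cells of mice. They were chosen by name from what is known of the photoreceptor cell, but with earlier results of these data known. Comparisons with all genes below are therefore no independent test of the set. It held 8 genes of the rod cascade, 10 of the cone cascade and 9 regulators of which most serve both cell types. It also held 5 genes of the outer segment and of retinoid handling, and 3 transcription factors. All 35 were found in the files. One group of 3 libraries came from Col8a2Q455K/Q455K/Tcf4+/- mice, which carry a mutant collagen VIII chain on both alleles and lack 1 allele of Tcf4, which encodes a transcription factor of the E protein family (Tcf4+/- group). The other 3 came from Col8a2Q455K/Q455K mice with no Tcf4 knockout (Col8a2 group). Both groups thus carry the Col8a2 mutation, a model of Fuchs endothelial corneal dystrophy, and no library without it was analysed here. The labels call the cells primary and untreated. The sources used here do not give age, the cells in which the Tcf4 allele was lost, or whether a library held 1 animal or pooled corneas, so p-values measure only the spread between these libraries, part of which may be technical.

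Phototransduction is the chain by which a photoreceptor turns light into an electrical signal. A photon activates an opsin, the opsin activates the G protein transducin, transducin releases the catalytic subunits of a cGMP phosphodiesterase from their inhibitory gamma subunit, and the drop in cGMP closes cation channels in the outer segment. Recovery needs opsin kinase, arrestin, the GTPase-activating protein RGS9, and guanylate cyclases that are switched on by calcium-sensing proteins when calcium falls. Rods and cones use separate genes for most of these steps, and mouse photoreceptors are mostly rods. These genes are known as markers of the neural retina, and corneal endothelium, the layer that keeps the cornea clear by moving water into the eye, is not known to signal through them.

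Many of these genes are known targets of CRX, a homeodomain factor of photoreceptors that recognises TAATCC, and the promoters below are shown because their genes were measured here side by side and carry that motif to different extents. Promoter sequences were taken from the RefSeq table of build GRCm38.p6, 250 bases before to 50 bases after each start, which held 25 of the 35 genes. TAATCC on either strand was found in 10 of those 25 promoters (40%) and in 7.06% of the 32851 promoters of the table. The 10 were Gngt1, Cnga1, Cngb1, Gnat2, Sag, Guca1a, Gucy2e, Gucy2f, Abca4 and Crx, with 2 matches each in Cngb1, Gucy2f and Crx. A match describes these letters only and is not evidence of binding. The 150 bases before the start are printed 5′ to 3′ on the strand of the gene. They are given for 5 genes with a match in them and for the pair of cone opsins, which had none. Capitals mark TAATCC or its reverse complement GGATTA.
Gngt1, rod transducin gamma, chr6:3993858-3994007, plus strand: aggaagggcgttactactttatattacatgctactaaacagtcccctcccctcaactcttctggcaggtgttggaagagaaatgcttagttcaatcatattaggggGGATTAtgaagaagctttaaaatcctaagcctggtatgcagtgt
Cngb1, rod channel beta subunit, chr8:95306586-95306735, minus strand: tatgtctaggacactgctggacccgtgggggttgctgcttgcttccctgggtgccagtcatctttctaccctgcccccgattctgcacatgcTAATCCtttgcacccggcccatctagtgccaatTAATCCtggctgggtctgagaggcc
Sag, rod arrestin, chr1:87803530-87803679, plus strand: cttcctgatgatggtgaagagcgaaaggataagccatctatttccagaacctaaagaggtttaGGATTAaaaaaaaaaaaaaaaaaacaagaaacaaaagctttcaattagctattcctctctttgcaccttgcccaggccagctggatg
Gnat2, cone transducin alpha, chr3:108092916-108093065, plus strand: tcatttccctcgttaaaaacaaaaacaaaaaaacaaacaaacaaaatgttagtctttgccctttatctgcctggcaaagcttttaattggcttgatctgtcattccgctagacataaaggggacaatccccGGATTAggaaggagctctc
Crx, the transcription factor itself, chr7:15879956-15880105, minus strand: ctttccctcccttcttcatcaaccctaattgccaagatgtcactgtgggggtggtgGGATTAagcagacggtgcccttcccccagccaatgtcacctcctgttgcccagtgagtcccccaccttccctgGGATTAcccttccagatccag
Opn1sw, short-wavelength cone opsin, chr6:29380514-29380663, minus strand: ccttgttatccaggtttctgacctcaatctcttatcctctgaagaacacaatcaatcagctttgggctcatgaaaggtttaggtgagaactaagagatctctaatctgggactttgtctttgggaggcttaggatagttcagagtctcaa
Opn1mw, middle-wavelength cone opsin, chrX:74127316-74127465, plus strand: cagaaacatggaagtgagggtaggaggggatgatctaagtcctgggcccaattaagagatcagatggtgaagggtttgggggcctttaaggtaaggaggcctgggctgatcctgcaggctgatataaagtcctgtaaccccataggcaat
The motif was present in rod genes, a cone gene and shared genes alike, and the levels below are given without reference to it.

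The libraries held 30344161 to 54265479 estimated counts and 19680 to 22538 genes with a count. All 15 markers of corneal endothelium were counted in all 6 libraries, led in CPM by Car3, a carbonic anhydrase, and Col8a2. The targeted gene was not reduced in the libraries labelled Tcf4+/-: Tcf4 was at 471 ± 116 CPM against 404 ± 81.7 CPM in the Col8a2 group (SD, n = 3 each), with an edgeR log2 fold change of 0.22 and a 95% interval from -0.52 to 0.96. The files do not show whether its counts come from an intact transcript, so every direction below is between libraries as labelled. Tcf4+/- replicate 3 stood apart: it had the fewest counts and the lowest sum of endothelial markers, 13777 CPM against 18677 to 28975 CPM in the other 5 libraries. Tcf4+/- replicates 2 and 3 also had a smaller gap between gene length and effective length, 155 and 150 bases against 211 to 241 bases in the rest. Mitochondrial tRNA genes took 15.6% and 15.8% of TPM in those 2 libraries and 0% in the others. The labels name no batch that would go with this. CPM here means TMM-scaled counts relative to library size, which serves to compare libraries, and TPM is the authors' length-scaled unit, which serves to compare genes.

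Phototransduction transcripts were found in every library, and 32 of the 35 genes had a count in all 6. The genes took 0.593%, 0.301% and 1.16% of all estimated counts in Tcf4+/- replicates 1, 2 and 3, against 0.436%, 0.310% and 0.321% in Col8a2 replicates 1, 2 and 3. As a mean over the 6 libraries, 10 of them stood at 100 TPM or more and 4 under 1 TPM. The most abundant per length were Pde6g at 711 TPM, Gnat1 at 656 TPM, Sag at 416 TPM and Gngt1 at 350 TPM, all genes best known from rods. Gnat1 ranked between 100 and 279 among all genes by TPM, depending on the library. In bulk samples such as these, fewer cells of a type and less RNA per cell cannot be told apart.

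No phototransduction gene passed the test between the genotypes. Of the 35 genes, 34 passed the filter on low counts, and Cnga3 did not. The edgeR quasi-likelihood test with Benjamini-Hochberg adjustment over 17639 genes called 0 of the 34, and its background was 0 called in either direction (0%). DESeq2 called 79 genes higher (0.43%) and 31 lower (0.169%) of 18353 adjusted, with 0 of the 35 genes among them, and limma voom called 0 genes in all. At an unadjusted p under 0.05, edgeR listed 5 of the 34 genes, all fitted higher in the Tcf4+/- group (Pde6a, Opn1mw, Rcvrn, Guca1b and Rp1), against a background of 1.42% of genes higher and 1% lower. In either direction the same count was 10 of 35 by DESeq2, where 4.53% of all genes were listed, and 2 of 34 by voom, where 2.94% were.

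The fitted log2 fold change was above 0 for 32 of the 34 genes, against 50.1% of all genes tested, with a median of 0.85 against 0 over all genes. Gucy2f and Cngb3 were the exceptions, at -1.05 and -0.20. Without Tcf4+/- replicate 3, 26 of 34 were above 0, against 48.8% of all genes, and the median was 0.27. In that edgeR fit 0 of the 34 had an unadjusted p under 0.05, where 437 of 18741 genes did. Without Tcf4+/- replicate 2, 19 of 34 did, where 656 of 18482 genes did. Without each of the remaining libraries in turn, 2 to 7 of 35 did. Leaving out any single library other than Tcf4+/- replicate 3 left the median between 0.75 and 1.21. Tcf4+/- replicate 1 alone against the 3 Col8a2 libraries, which share its longer length gap, gave 29 of 34 above 0 and a median of 0.54. Over all genes in that fit, 44.7% were above 0 and the median was -0.09. The 34 values come from 1 Tcf4+/- library and are not independent of each other. Replicates 2 and 3 have no Col8a2 library like them in the length gap, so the gap and the genotype cannot be told apart there. On the log2(TPM + 0.1) scale, where the median of all genes was -0.18, 29 of 34 genes were above 0 with a median of 0.48.

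**Figure D1:**
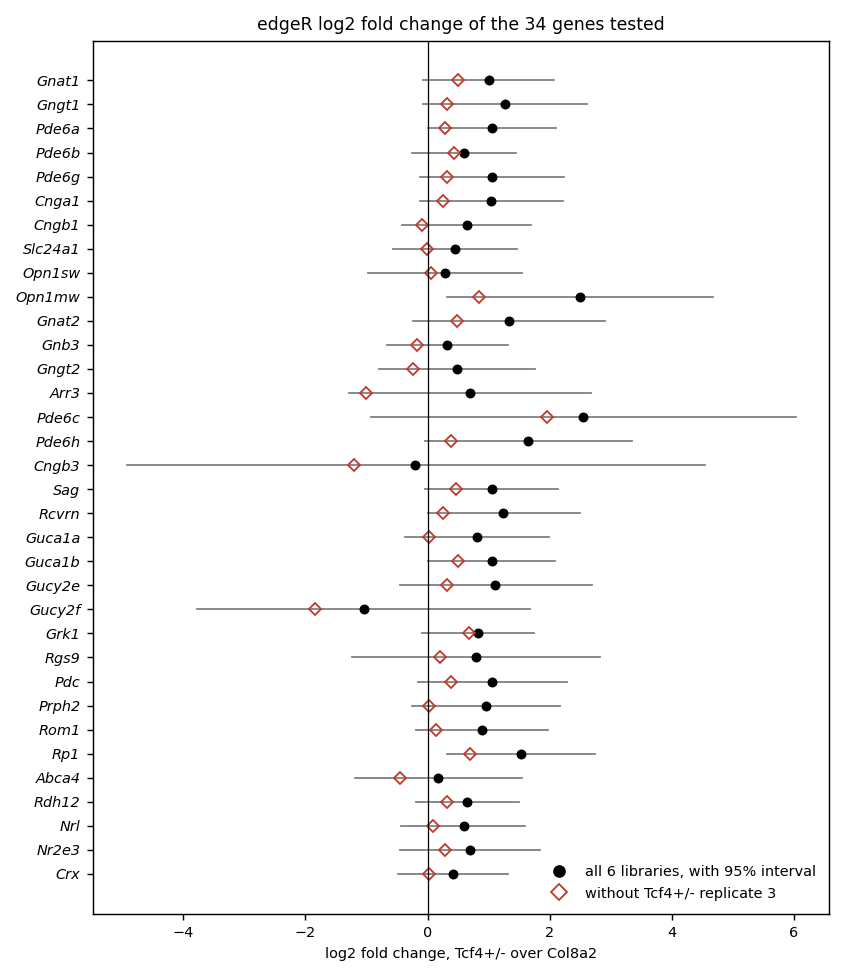
Log2 fold change of the 34 tested phototransduction genes, Tcf4+/- over Col8a2, by edgeR. Black points with 95% intervals use all 6 libraries, and open diamonds leave out Tcf4+/- replicate 3; 26 of the 34 diamonds lie above 0, against 32 of the black points.

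Most of these genes had their highest value in the same library. Tcf4+/- replicate 3 was the highest library for 31 of the 35 genes, whereas it was the highest for 22.7% of all genes tested. Pde6b and Grk1 were highest in Tcf4+/- replicate 1 (13.9% of all genes), and Gucy2f and Cngb3 in Col8a2 replicate 1 (15.7%). No phototransduction gene was highest in Tcf4+/- replicate 2 (13.8% of all genes), in Col8a2 replicate 2 (18.4%) or in Col8a2 replicate 3 (15.5%). Leaving aside Cnga3 and Cngb3, which were at 0 in several libraries, Tcf4+/- replicate 2 was the lowest library for 8 genes, and Col8a2 replicates 2 and 3 for 11 each. The groups did not overlap for 3 genes, Pde6a, Pde6c and Rp1, all higher in the Tcf4+/- group, where 4.54% of all genes tested were higher without overlap and 3.57% lower.

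**Figure D2:**
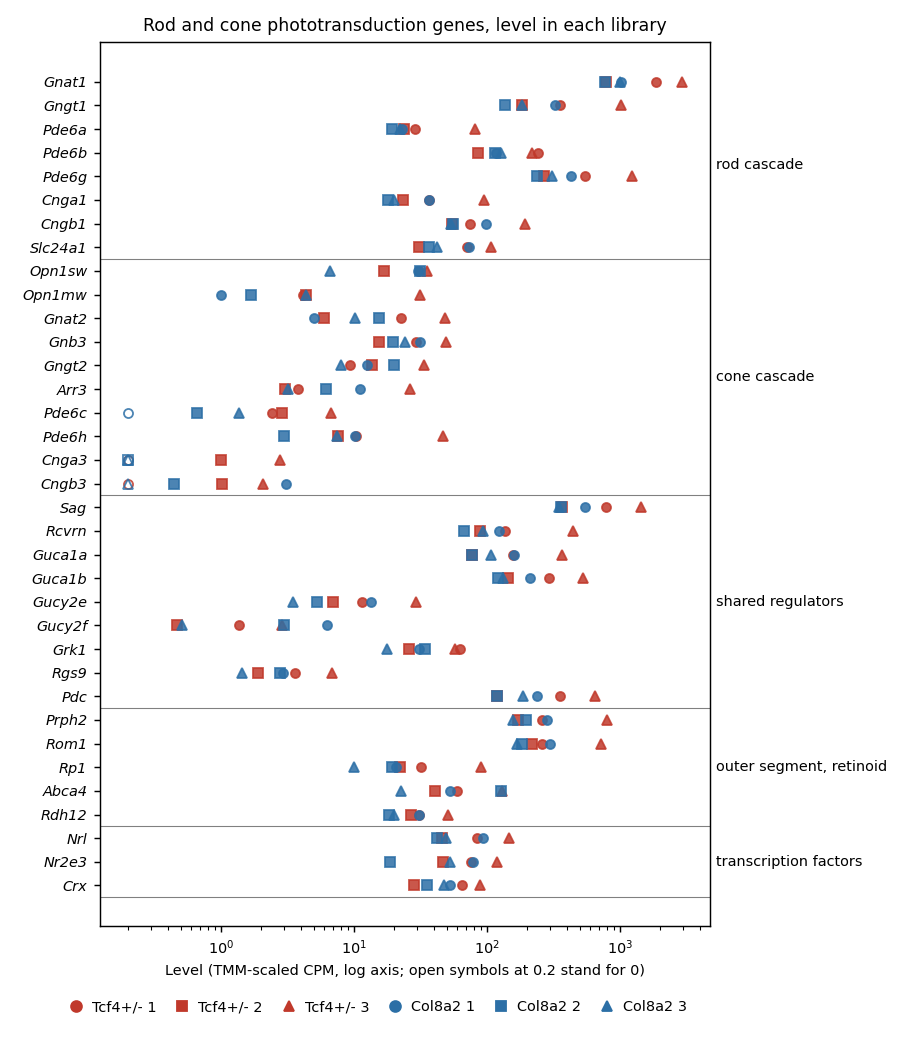
Level of each of the 35 phototransduction genes in each library, in TMM-scaled CPM on a log axis, grouped by role. Red symbols are Tcf4+/- libraries and blue symbols Col8a2 libraries; Tcf4+/- replicate 3 (red triangles) is the rightmost symbol for 31 of the 35 genes, and open symbols stand for 0.

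In the rod cascade, all 8 genes had counts in every library and all 8 were fitted higher in the Tcf4+/- group, with log2 fold changes of 0.45 to 1.27 and a median of 1.02. Gnat1 (ENSMUSG00000034837, chromosome 9), the alpha subunit of rod transducin that carries the signal from opsin to phosphodiesterase, stood at 1861, 788 and 2942 CPM in Tcf4+/- replicates 1, 2 and 3, and at 1023, 768 and 1006 CPM in the Col8a2 libraries in the same order, which is kept below. The groups overlapped, because Tcf4+/- replicate 2 lay within the Col8a2 libraries. The Tcf4+/- mean was 1864 ± 1077 CPM and the Col8a2 mean 932 ± 143 CPM (SD, n = 3 each), and edgeR gave a log2 fold change of 1.0, SE 0.48, unadjusted p 0.0634 and adjusted p 0.99988. Its partner Gngt1, the transducin gamma subunit, had 356, 183 and 1015 CPM in the Tcf4+/- group against 326, 136 and 184 CPM in the Col8a2 group, so that only Tcf4+/- replicates 1 and 3 lay above the Col8a2 range.

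Rod phosphodiesterase, the enzyme that breaks down cGMP, is built from the catalytic subunits Pde6a and Pde6b and the inhibitory subunit Pde6g. Pde6a (ENSMUSG00000024575, chromosome 18) was at 28.7, 23.8 and 81.3 CPM in the Tcf4+/- libraries, against 22.9, 19.3 and 22.2 CPM in the Col8a2 libraries. Every Tcf4+/- library lay above every Col8a2 library, replicate 2 by a margin of under 1 CPM, and the log2 fold change was 1.05 with SE 0.47, unadjusted p 0.0497 and adjusted p 0.99988 by edgeR. Pde6b had 241, 86.3 and 220 CPM in the Tcf4+/- group and 117, 116 and 129 CPM in the Col8a2 group. The Col8a2 values of Pde6b lay close together, and the Tcf4+/- values fell on both sides of them. Pde6g had 547, 268 and 1234 CPM in the Tcf4+/- libraries and 433, 239 and 312 CPM in the Col8a2 libraries, with Tcf4+/- replicate 2 inside the Col8a2 range.

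The rod channel and its exchanger close the chain. Cnga1, the alpha subunit of the cGMP-gated cation channel, was at 37.0, 23.3 and 95.1 CPM in the Tcf4+/- libraries against 37.1, 18.1 and 20.0 CPM in the Col8a2 libraries. Cngb1, its beta subunit, was at 75.3, 54.9 and 194 CPM against 97.9, 55.7 and 54.1 CPM. Slc24a1, the sodium, calcium and potassium exchanger that removes calcium from the rod outer segment, was at 71.4, 30.9 and 107 CPM against 73.9, 37.0 and 42.3 CPM. In all 3 genes Tcf4+/- replicate 3 was the highest library, Col8a2 replicate 1 was at or above Tcf4+/- replicate 1, and without Tcf4+/- replicate 3 the log2 fold changes of Cngb1 and Slc24a1 were -0.10 and -0.01.

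The cone cascade was lower and more scattered. Of its 10 genes, 9 passed the filter, 8 had a fitted change above 0 and Cngb3 below, and their median log2 fold change was 0.70. Opn1sw (ENSMUSG00000058831, chromosome 6), the short-wavelength cone opsin, was at 31.2, 16.9 and 35.6 CPM in the Tcf4+/- group and at 30.5, 31.5 and 6.66 CPM in the Col8a2 group. The groups overlapped, with Col8a2 replicate 3 lowest, and the log2 fold change was 0.29 with SE 0.56. Opn1sw shares exonic sequence with Calu on the opposite strand, which stood at 254, 316 and 122 CPM in the Tcf4+/- libraries and 325, 598 and 308 CPM in the Col8a2 libraries, and without strand the reads of both cannot be told apart. Opn1mw (ENSMUSG00000031394, chromosome X), the middle-wavelength cone opsin, was at 4.15, 4.34 and 31.6 CPM against 0.998, 1.70 and 4.39 CPM. Tcf4+/- replicate 3 alone was far above the rest, the other Tcf4+/- libraries fell just below Col8a2 replicate 3, and the log2 fold change of 2.50 (SE 0.97, unadjusted p 0.0289, adjusted p 0.99988 by edgeR) was 0.84 without that library.

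Cone transducin is made of Gnat2, Gnb3 and Gngt2. Gnat2, the alpha subunit, was at 22.6, 6.0 and 48.7 CPM in the Tcf4+/- libraries against 5.01, 15.4 and 10.2 CPM in the Col8a2 libraries. Gnb3, the beta subunit, which is not confined to cones, was at 29.2, 15.4 and 49.8 CPM against 31.4, 19.8 and 24.3 CPM. Gngt2, the gamma subunit, was at 9.38, 13.6 and 33.5 CPM against 12.5, 19.9 and 7.98 CPM. For all 3 the groups overlapped, and Tcf4+/- replicate 3 was the highest library. Gngt2 shares exonic sequence with Abi3, which stood at 5.38 CPM at most.

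Cone arrestin and the listed subunits of cone phosphodiesterase were also highest in Tcf4+/- replicate 3. Arr3, cone arrestin, was at 3.83, 3.05 and 26.7 CPM in the Tcf4+/- group against 11.2, 6.22 and 3.22 CPM in the Col8a2 group. Without Tcf4+/- replicate 3 the log2 fold change of Arr3 was -1.01, against 0.70 with it. Pde6h, the inhibitory subunit of cone phosphodiesterase, was at 10.4, 7.64 and 47.1 CPM against 10.3, 2.97 and 7.45 CPM, and it shares exonic sequence with Arhgdib, which stood at 121 to 175 CPM. Pde6c (ENSMUSG00000024992, chromosome 19), the catalytic subunit, had 115, 160 and 199 estimated counts in the Tcf4+/- libraries against 0, 33 and 70 in the Col8a2 libraries. That is 2.44, 2.91 and 6.72 CPM against 0, 0.666 and 1.38 CPM, with no overlap between the groups, a log2 fold change of 2.55, SE 1.55, an unadjusted p of 0.132 and an adjusted p of 0.99988 by edgeR.

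The subunits of the cone cyclic nucleotide-gated channel, Cnga3 and Cngb3, were the only members that did not reach 2 CPM on average or 5 CPM in any library. Cnga3 had 0, 55 and 82 estimated counts in the Tcf4+/- libraries and 0 in all 3 Col8a2 libraries. With a floor of 3 counts over the Col8a2 group, the pooled counts of the Tcf4+/- group were at least 50.4-fold higher. That bound covers counting error only and rests on 2 libraries, Tcf4+/- replicates 2 and 3, which had the smaller length gap. Tcf4+/- replicate 1, which is like the Col8a2 libraries in that gap, was at 0 as they were. The bound is thus no estimate of a genotype difference. Cngb3 had 0, 56 and 61 counts against 145, 22 and 0. Both genes were thus at 0 in at least 1 Tcf4+/- library, and they differed in which Col8a2 libraries held a count.

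Among the regulators, 8 of 9 were fitted higher in the Tcf4+/- group, with a median log2 fold change of 1.05. Sag, rod arrestin, which shuts off the activated opsin, was at 791, 368 and 1445 CPM in the Tcf4+/- libraries against 552, 359 and 347 CPM in the Col8a2 libraries. The means were 868 ± 543 CPM and 419 ± 115 CPM (SD, n = 3 each), and the groups overlapped at Tcf4+/- replicate 2. Grk1, the kinase that marks the opsin for arrestin, was at 63.3, 26.2 and 57.4 CPM against 31.0, 34.3 and 17.8 CPM. Rcvrn, recoverin, the calcium sensor that restrains this kinase, was at 137, 88.6 and 447 CPM against 123, 67.5 and 93.9 CPM. Recoverin had an unadjusted p of 0.0495 in edgeR although Tcf4+/- replicate 2 lay inside the Col8a2 range.

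The cyclases and their activators restore cGMP after light. Guca1a was at 157, 77.6 and 369 CPM in the Tcf4+/- group against 160, 77.7 and 108 CPM in the Col8a2 group. Guca1b was at 294, 145 and 525 CPM against 212, 121 and 133 CPM. For Guca1b, Tcf4+/- replicate 1 was above every Col8a2 library, and for Guca1a it was not. Both encode guanylate cyclase activators and lie on chromosome 17. Gucy2e, the main retinal guanylate cyclase of mouse photoreceptors, was at 11.6, 6.96 and 29.6 CPM against 13.4, 5.31 and 3.48 CPM. Gucy2f, the second retinal cyclase, was at 1.36, 0.472 and 2.90 CPM against 6.29, 2.99 and 0.514 CPM, and its log2 fold change of -1.05 had SE 1.22, so that its interval spans 0 widely. Rgs9, which speeds the shut-off of transducin, was at 3.64, 1.91 and 6.82 CPM against 2.93, 2.77 and 1.44 CPM. Pdc, phosducin, which binds the beta and gamma subunits of transducin, was at 357, 120 and 655 CPM against 237, 120 and 187 CPM.

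The 5 outer segment and retinoid genes were all fitted higher in the Tcf4+/- group, with a median log2 fold change of 0.89. Prph2 and Rom1, the tetraspanins that shape the rim of the disc, were at 260, 173 and 804 CPM and at 262, 219 and 724 CPM in the Tcf4+/- libraries. In the Col8a2 libraries Prph2 was at 285, 197 and 157 CPM and Rom1 at 298, 185 and 168 CPM. For both, Col8a2 replicate 1 was above Tcf4+/- replicates 1 and 2, and the log2 fold changes without Tcf4+/- replicate 3 were 0.02 and 0.14. Rp1 (ENSMUSG00000025900, chromosome 1), a microtubule-binding protein of the outer segment axoneme, was at 32.1, 22.3 and 91.0 CPM against 20.6, 19.5 and 10.1 CPM. The groups of Rp1 did not overlap, with means of 48.5 ± 37.2 CPM and 16.8 ± 5.79 CPM (SD, n = 3 each), a log2 fold change of 1.53, SE 0.54, unadjusted p 0.0187 and adjusted p 0.99988 by edgeR, and without Tcf4+/- replicate 3 it was 0.69.

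The retinoid genes were less alike. Abca4, the transporter that clears retinal from the disc, was at 59.9, 40.5 and 130 CPM in the Tcf4+/- group against 52.7, 129 and 22.6 CPM in the Col8a2 group. Its value in Col8a2 replicate 2 was close to that in Tcf4+/- replicate 3, and the groups overlapped. Rdh12, a retinol dehydrogenase of the inner segment, was at 31.2, 26.9 and 51.3 CPM against 30.9, 18.4 and 20.2 CPM, lowest in the library where Abca4 was second highest.

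The 3 transcription factors were all fitted higher in the Tcf4+/- group, with a median log2 fold change of 0.59. Nrl, which directs rod fate, was at 85, 45.8 and 146 CPM in the Tcf4+/- libraries against 93.3, 42.1 and 49.4 CPM in the Col8a2 libraries. Nr2e3, which represses cone genes in rods, was at 76.3, 47.0 and 120 CPM against 78.5, 18.6 and 53.1 CPM. Crx, which acts in rods and cones, was at 65.2, 28.5 and 88.2 CPM against 53.3, 35.7 and 47.7 CPM. All 3 were present in every library, the groups overlapped, and Tcf4+/- replicate 3 was highest each time.

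The rod list outweighed the cone list in every library, although the lists are not matched gene for gene. The cone list holds the cone opsins, Arr3 and Gnb3, whereas the rod list holds no opsin, arrestin or beta subunit. Sag was placed among the regulators, and the exchanger Slc24a1 has no counterpart in the cone list. Per length, the 8 rod genes summed to 2448, 1053 and 3553 TPM in the Tcf4+/- libraries and 1646, 1231 and 1385 TPM in the Col8a2 libraries, and the 10 cone genes to 111, 77.6 and 228 TPM and 103, 141 and 72.6 TPM. The rod sum was 22.1, 13.6 and 15.6 times the cone sum in the Tcf4+/- group, against 16, 8.75 and 19.1 times in the Col8a2 group. These ranges overlapped, and the log2 difference of the group means, 0.27, moved between -0.07 and 0.50 when single libraries were left out. It was -0.07 without Col8a2 replicate 2, which had the lowest ratio, and 0.67 with Tcf4+/- replicate 1 alone. With Pde6g and Gngt2 left out of the sums it was 0.13. Gngt2 made up 67.3 of the 141 TPM of the cone sum in Col8a2 replicate 2. In CPM, the rod sum averaged 3522 ± 2231 in the Tcf4+/- group and 1763 ± 371 in the Col8a2 group (SD, n = 3 each), a log2 ratio of 1.0, which was 0.41 without Tcf4+/- replicate 3 and 0.87 with Tcf4+/- replicate 1 alone. The cone sum averaged 157 ± 113 CPM and 89.7 ± 21.2 CPM, a log2 ratio of 0.80, which was 0.04 without Tcf4+/- replicate 3 and 0.33 with Tcf4+/- replicate 1 alone. No test was run on these sums.

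Ratios of TPM between rod or outer segment genes varied less from library to library than those that set a rod gene against a cone gene. Prph2 over Rom1 was 0.596, 0.522 and 0.695 in the Tcf4+/- libraries against 0.586, 0.657 and 0.565 in the Col8a2 libraries, a range of 1.33-fold. Pdc over Gnat1 ranged 1.40-fold, Cngb1 over Cnga1 1.71-fold and Gngt1 over Gnat1 1.84-fold. Pde6b over Pde6a was wider, at 11.6, 5.50 and 3.89 in the Tcf4+/- libraries against 5.41, 8.54 and 9.40 in the Col8a2 libraries, a 2.99-fold range. Pde6g over Pde6b ranged 2.52-fold and Sag over Grk1 2.31-fold. These widths were near the 2.53-fold range of the rod sum over the cone sum. Across the matched rod and cone genes, Gnat1 over Gnat2 ranged from 26.3 to 119, Gngt1 over Gngt2 from 2.65 to 14.0, Pde6g over Pde6h from 32.4 to 136 and Sag over Arr3 from 33.0 to 136. The cone opsins varied most, with Opn1sw over Opn1mw at 5.16, 2.04 and 0.822 in the Tcf4+/- group against 20.7, 5.74 and 1.08 in the Col8a2 group, a 25.1-fold range. Tcf4+/- replicate 3 was the only library in which Opn1mw exceeded Opn1sw, and Col8a2 replicate 3 came next, so the order of this ratio did not separate the groups.

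**Figure D3:**
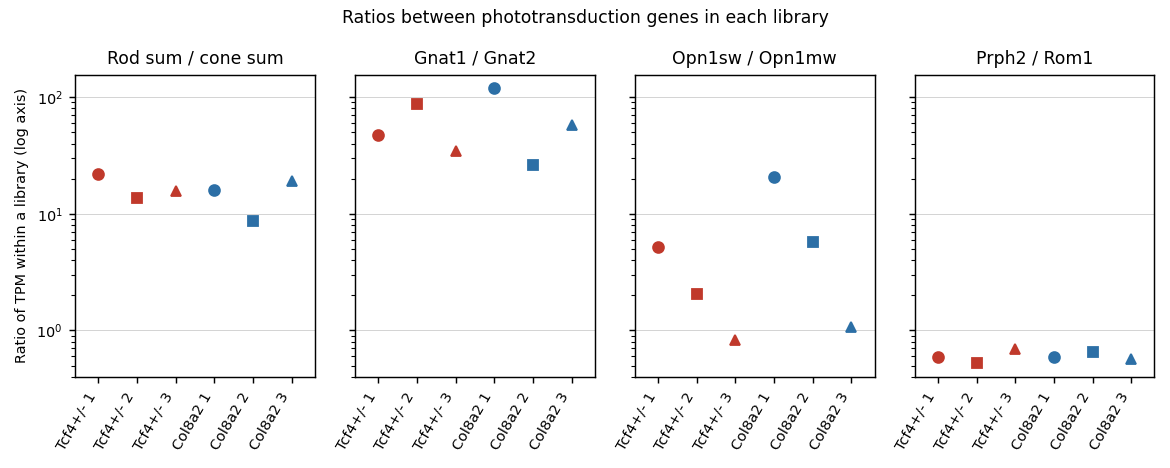
Ratios of TPM between phototransduction genes within each library, on a log axis, red for Tcf4+/- and blue for Col8a2 libraries. Prph2 over Rom1 stays between 0.522 and 0.695, while Opn1sw over Opn1mw spans 0.822 to 20.7.

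The share that each gene took of the 35-gene TPM total was also compared. The 10 cone genes were a small part of that total, 111 of 4705 TPM in Tcf4+/- replicate 1 and 141 of 2640 TPM in Col8a2 replicate 2. A cone share is thus close to a ratio to rod and shared genes, and a rod share is mostly set against its own kind. The shares are therefore no separate evidence beside the ratios above. Over the 6 libraries the coefficient of variation of a gene's share was 4.83% to 28.4% for the rod genes, with a median of 15.2%. It was 23.3% to 169% for the cone genes, with a median of 55.2%. Genes of like level differed in this too. Pde6a and Cnga1, rod genes at 9.25 and 14.8 TPM, varied by 14.7% and 14.2%, whereas Gnat2 and Opn1sw, cone genes at 14.7 and 17.5 TPM, varied by 53.0% and 46.6%. Gnb3, the cone-list gene that is not confined to cones, was at 17.9 TPM and varied by 23.3%, less than rod Pde6b at 28.4%. A like TPM is not a like number of reads: Gnat2 had 236 to 1443 estimated counts over the libraries, against 956 to 2407 for Pde6a. Pde6g was the steadiest gene, with 18.5% of the total on average and a coefficient of 4.83%, and Sag varied by 7.91%. Shares within 1 total are not independent of each other, and these values are descriptions with no test.

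**Figure D4:**
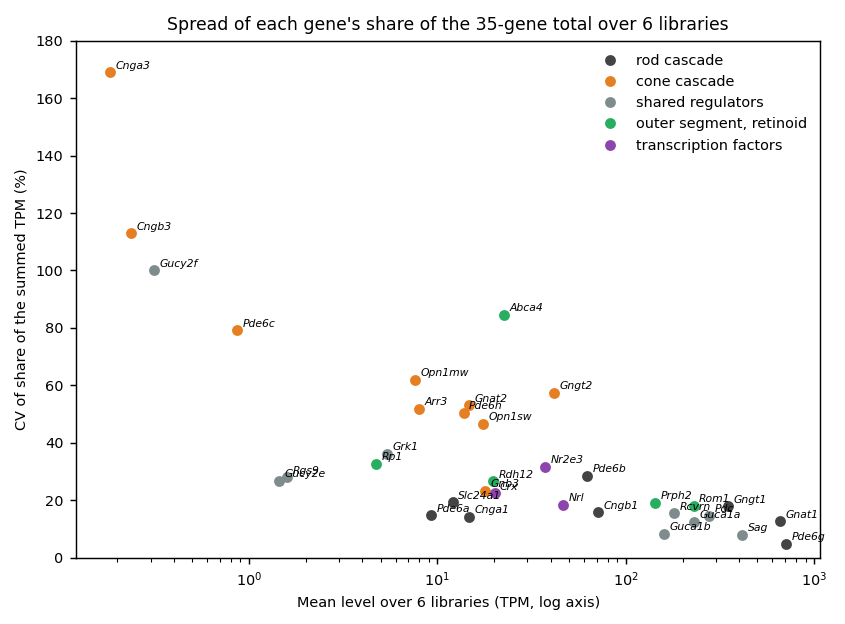
Coefficient of variation, over the 6 libraries, of each gene's share of the 35-gene TPM total, against its mean TPM on a log axis. Rod genes (dark grey) lie at or below 28.4% at all levels, and cone genes (orange) between 23.3% and 169%.

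Other genes known from photoreceptors, 30 in all, were taken beside them. They include genes of the synapse, cilium, outer segment and matrix, transcription factors, and signalling genes that are not all confined to photoreceptors. Of 29 tested, 24 had a fitted change above 0 and 5 below, against 50.1% of all genes above 0, with a median log2 fold change of 0.35, and 0 passed the adjusted threshold. Tcf4+/- replicate 3 was the highest library for 18 of the 30, against 22.7% of all genes tested. Without it, 14 of 29 were above 0, against 48.8% of all genes, and the median was 0. Their sum was 2315, 1229 and 3895 CPM in the Tcf4+/- libraries against 2092, 1510 and 1441 CPM in the Col8a2 libraries, so Tcf4+/- replicate 2 was the lowest and replicate 3 the highest. The highest of them in CPM, Gnb1, the beta subunit of rod transducin, which is made in most cell types, had 822, 407 and 1296 CPM against 618, 479 and 537 CPM.

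Markers of neighbouring tissues were present beside the phototransduction genes and did not all follow them. The 9 markers of retinal pigment epithelium, the layer behind the photoreceptors, summed to 1637, 876 and 1035 CPM in the Tcf4+/- libraries against 1685, 1289 and 717 CPM in the Col8a2 libraries, with a median log2 fold change of -0.04. All 9 had a count in every library, and Tcf4+/- replicate 3 was the highest library for 1 of them. Rgr, a retinal opsin of that layer, was the most abundant, at 772, 409 and 387 CPM against 707, 604 and 298 CPM. Gnat1 over Rgr by TPM was accordingly 1.94, 1.41 and 7.38 in the Tcf4+/- group against 1.72, 1.03 and 2.91 in the Col8a2 group. Markers of Müller glia, some of them shared with pigment epithelium, summed to 593 to 855 CPM against 600 to 886 CPM. Markers of inner retinal neurons summed to 572 to 785 CPM against 569 to 825 CPM. Tfap2b, also a factor of the anterior eye, and Trpm1 made up a large part of that sum. Tfap2b was at 319, 543 and 489 CPM against 306, 434 and 378 CPM. Trpm1 was at 144, 139 and 131 CPM against 226, 218 and 75.2 CPM. The sum therefore says little about the other markers of the list. Single markers of inner retinal neurons were nevertheless highest in Tcf4+/- replicate 3 for 9 of 16 genes, beside 22.7% of all genes tested. Of the 16, only 13 passed the filter and were tested. Vsx1, which is among the 9, did not pass, and nor did Lhx1 and Onecut1. Lhx1 and Onecut1, markers of horizontal cells, were at 0 in every library.

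Lens markers were highest in the same library as the phototransduction genes, but the other libraries ordered differently. The 17 lens genes summed to 101, 4367 and 11563 CPM in the Tcf4+/- libraries against 629, 33.8 and 304 CPM in the Col8a2 libraries, led by Cryaa and Crybb2, both crystallins. Tcf4+/- replicate 2 had the second highest lens sum and 1458 CPM of rod genes, the lowest of its group, while replicate 1 had the lowest lens sum of its group and 3219 CPM of rod genes. Corneal epithelium markers summed to 6710, 2284 and 4766 CPM against 6442, 2990 and 3902 CPM, red cell markers to 6127, 1362 and 2943 CPM against 1296, 531 and 1967 CPM, and pigment cell markers to 593, 1532 and 737 CPM against 1079, 1164 and 356 CPM. Corneal stroma markers summed to 10659, 14600 and 12338 CPM against 13991, 9027 and 7566 CPM. The endothelial sum was 25744, 28975 and 13777 CPM against 18677, 23074 and 28527 CPM, and 9 of its 15 markers were lowest in Tcf4+/- replicate 3. The part that other tissues and depth have in the levels of the phototransduction genes was not tested, and the values without Tcf4+/- replicate 3 are those given above for the medians, the sums and single genes.

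**Figure D5:**
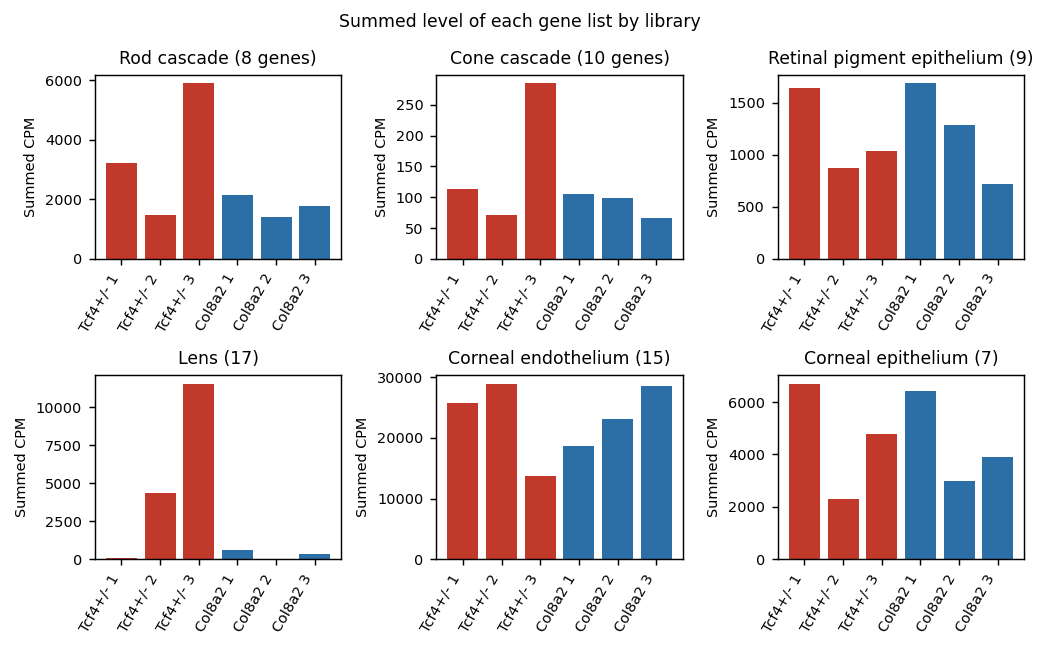
Summed TMM-scaled CPM of 6 gene lists in each library, red for Tcf4+/- and blue for Col8a2 libraries, each panel with its own axis from 0. The rod and cone sums peak in Tcf4+/- replicate 3, where the lens sum is highest at 11563 CPM and the corneal endothelium sum lowest at 13777 CPM.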

How the data were processed

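Per the labels' protocols, total RNA (RNeasy Micro Kit) was turned into cDNA by SMART-Seq HT and into libraries by Nextera XT, with no mention of strand. The submitters' processing notes name build GRCm39 and the tools fastp 0.23.2, FastQC 0.12.1, RSEM, STAR and DESeq2. Further versions and the gene annotation are not given in the sources used. Files deposited by the authors hold expected counts per gene, unscaled and 9.97% of them not whole, and TPM values, which correct for gene length. Symbols came from GENCODE M21 of build GRCm38, by identifier (51884 of 57180 matched), so gene coordinates are not printed, and promoters are those of RefSeq GRCm38.p6.

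Expected counts were rounded, filtered with filterByExpr, TMM-scaled and compared by the edgeR 4.0.16 quasi-likelihood test (R 4.3.3). The model held genotype alone, and p-values were adjusted by Benjamini-Hochberg over 17639 genes, with a threshold of 0.05. The common biological coefficient of variation, 0.744, and the median SE of a log2 fold change, 0.543, limit what can be resolved. An exact permutation test of 3 against 3 cannot go below 0.1. Alternatives were DESeq2 1.42.0, limma 3.58.1 with voom or log2 TPM, other scalings and filters, a replicate block and leaving out libraries. All members and lists were chosen with earlier results of these data known. Per-library values are given for members with a mean of at least 2 CPM or at least 5 CPM in any library, and marker lists are named by their 1 or 2 highest genes. Rpe65, Vsx1, Lhx1, Onecut1 and the genes that overlap members were named after their values were seen. RSEM shares reads among similar or overlapping genes. The floor used for a gene at 0 covers counting error only.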

Additional observations from a re-analysis of the deposited data

How the results depend on the processing

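No phototransduction gene passed the threshold in any setting run (0 throughout, and 0 to 0 over the leave-one-out fits). DESeq2 called 110 genes in all, where edgeR called 0, and leaving out single libraries gave 0 to 4 (4 without Col8a2 replicate 3). Leaving out single libraries moved the log2 ratio of the rod sum between 0.41 and 1.37, of the cone sum between 0.04 and 1.15 and of the rod to cone ratio between -0.07 and 0.50. Of 556 alternative values of single genes, 531 kept their direction and 25, in 9 genes, changed it; the cause was not tested. In limma on log2(TPM + 0.1) and log2(TPM + 1), Gnb3 was at -0.07 and -0.06, Arr3 at -0.06 and -0.04, Abca4 at -0.17 in both and Tcf4 at -0.07 in both. With voom, Arr3 was at -0.10 and Cngb3 at 0.12. Without Tcf4+/- replicates 2 and 3, Gngt2 was at -0.53, Arr3 at -0.85 and Abca4 at -0.19. With the replicate block, Arr3 was at -0.06 and Cngb3 at 1.11. Leaving out single libraries changed the sign of Cngb1 (-0.10 to 0.98), Slc24a1 (-0.01 to 0.82), Opn1sw (-0.15 to 0.59), Gnb3 (-0.18 to 0.67), Gngt2 (-0.24 to 0.88), Arr3 (-1.01 to 1.24), Cngb3 (-1.21 to 2.19) and Abca4 (-0.45 to 1.03). Deviations of same-numbered libraries from their group means correlated at -0.02, 0.14 and -0.02, and those of differently numbered libraries at -0.09 to 0.09. These values show no clear pairing by replicate number but cannot exclude one. The replicate block left 0 genes called and changed no other call. Genes under about 3 CPM, such as Pde6c, Cnga3 and Cngb3, rest on few counts in these libraries.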

Other observations

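Rod transducin was also set against single genes of the retina. Gnat1 over Rpe65, the retinoid isomerase of pigment epithelium, was 8.27, 10.4 and 23.2 by TPM in Tcf4+/- replicates 1, 2 and 3, against 7.59, 8.03 and 21.8 in Col8a2 replicates 1, 2 and 3. The replicate 3 libraries of both groups thus had the most Gnat1 for their Rpe65, although the Gnat1 level itself was 2942 CPM in the Tcf4+/- library and 1006 CPM in the Col8a2 library. Gnat1 over Crx, a photoreceptor gene in both terms, was 35.7, 35.7 and 42.8 in the Tcf4+/- libraries, against 24.4, 27.4 and 26.6 in the Col8a2 libraries. The groups did not overlap in the ratio to Crx, and they did in the ratio to Rpe65. They did not overlap in Cngb1 over Cnga1 either, at 5.07, 4.16 and 3.86 in the Tcf4+/- libraries against 5.57, 5.43 and 6.60 in the Col8a2 libraries. With so few libraries per group, some of many ratios can separate without any group difference. These ratios were looked at after the values were seen, and no test was run on them.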
